A study of Danio rerio with 4 samples.

Results

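The genes described here are 10 zebrafish genes of the blood and lymphatic vessel lining: the vascular endothelial growth factor (VEGF) receptor genes kdrl, kdr, flt1 and flt4, the angiopoietin receptor genes tie1 and tek, the junction gene cdh5, the transcription factor gene fli1a, and the lymphatic and venous genes lyve1b and stab2. They were picked by gene symbol, and all 10 were found among the 27472 genes of the deposited table, each with a single Ensembl identifier. Whole larvae of strain AB treated with 4 µM bisphenol C (BPC, a bisphenol) from 4 hours post fertilization (hpf) and sampled at 72 hpf were compared with larvae of the same strain and age given the solvent dimethyl sulfoxide (DMSO). Each group had 2 RNA-seq libraries, numbered 1 and 3. Pool sizes and clutches are not recorded in the labels. The p-values here weigh a difference between groups against the spread between libraries of a group, part of which may be technical. Levels are FPKM, read fragments corrected for transcript length and for the fragments mapped in the library, so they can be compared between genes per length.

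Vessels are lined by endothelial cells, which read VEGF through receptor tyrosine kinases and are held together by VE-cadherin. In zebrafish the trunk vessels are already perfused by the larval stage studied here, and lymphatic vessels are being formed from veins under Vegfc and its receptor Flt4. In RNA from whole larvae, fewer endothelial cells and less RNA per endothelial cell cannot be told apart.

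None of the 10 genes passed the test between BPC and DMSO larvae. The test was limma on log2(FPKM + 1) across the 19873 genes that reached 0.5 FPKM in 2 or more libraries, with Benjamini-Hochberg adjustment and a threshold of 0.05. All 10 genes passed that filter. The limma test called 24.6% of all tested genes, 7.06% as higher and 17.5% as lower in BPC, against 0 of these 10. At an unadjusted p under 0.05 the count was also 0 of 10, beside 40.0% of all tested genes. The 10 fitted log2 changes lay between -0.19 and 0.18, 5 above and 5 below 0, with a median of -0.015, where the median of all tested genes was -0.12. The median size of the change, regardless of sign, was 0.078 for the 10 genes and 0.27 for all tested genes, on the same scale. The smallest adjusted p among the 10 was 0.312, for kdr.

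**Figure D1:**
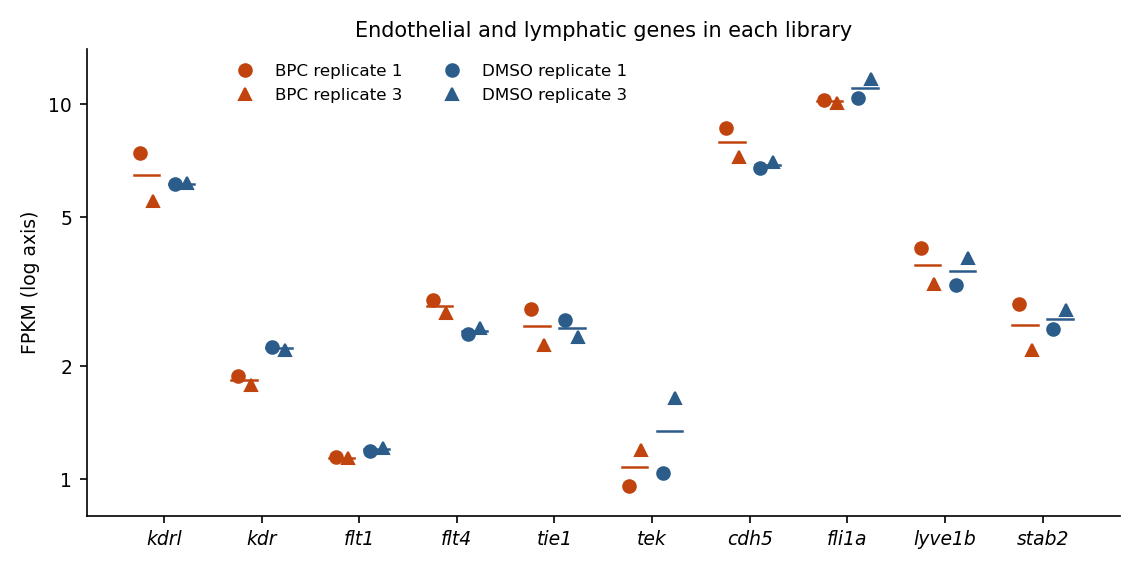
FPKM of each of the 10 genes (log axis) in the 2 BPC and the 2 DMSO libraries, 1 point per library, with a short line at each group mean. Both groups lie close together for every gene, and fli1a, cdh5 and kdrl are the 3 highest genes in every library.

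VEGF receptors carry the growth signal that vessels depend on. The gene kdrl (ENSDARG00000105215) encodes the main VEGF-A receptor of zebrafish endothelium. Its level was 7.38 and 5.52 FPKM in the BPC libraries, against 6.12 and 6.15 FPKM in the DMSO libraries. The BPC libraries lay on either side of the DMSO pair, and the log2 change was 0.05 (SE 0.15, 95% interval -0.31 to 0.41, adjusted p = 0.825). In kdrl the spread was all on the BPC side, since its SD was 1.32 FPKM in BPC and 0.0214 FPKM in DMSO larvae.

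The related receptor gene kdr (ENSDARG00000017321), the second zebrafish counterpart of mammalian VEGF receptor 2, was at 1.89 and 1.78 FPKM in BPC, against 2.25 and 2.22 FPKM in DMSO larvae. Both BPC values were below both DMSO values. The log2 change of -0.19 (SE 0.13, interval -0.50 to 0.12) did not pass the test. The gene flt1 (ENSDARG00000019371) encodes a receptor that binds VEGF tightly and, in its soluble form, holds it away from the signalling receptors. It was listed at 1.14 and 1.14 FPKM in BPC and at 1.19 and 1.22 FPKM in DMSO. This was the narrowest range over 4 libraries of any of the 10 genes, and its log2 change was -0.040 (SE 0.13, interval -0.35 to 0.27, adjusted p = 0.841). The table has 2 transcripts under flt1 and 1 value for the gene, so the soluble and the membrane form were not separated.

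The gene flt4 (ENSDARG00000104453), the Vegfc receptor of veins and lymphatic vessels, had 3.00 and 2.78 FPKM in BPC, against 2.44 and 2.53 FPKM in DMSO larvae. Both BPC values were above both DMSO values, by a ratio of means of 1.16. The log2 change of 0.16 (SE 0.13, interval -0.15 to 0.46, adjusted p = 0.395) did not pass. Thus kdr and flt4 had estimates of opposite sign, and neither was larger than the test could distinguish from the spread between libraries.

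Angiopoietins act through Tek, with Tie1 as its partner receptor. The gene tie1 (ENSDARG00000004105) had 2.84 and 2.28 FPKM in BPC and 2.66 and 2.40 FPKM in DMSO larvae. Its groups overlapped throughout, and its log2 change of 0.010 (SE 0.14, interval -0.33 to 0.35, adjusted p = 0.966) was the closest to 0 of the 10. The gene tek (ENSDARG00000028663) had 0.962 and 1.19 FPKM in BPC, against 1.04 and 1.65 FPKM in DMSO. Its log2 change was -0.16 (SE 0.17, interval -0.58 to 0.25, adjusted p = 0.517), with the largest SE among the 10 and the DMSO 3 library above the other three. At this level the pseudocount shrinks a change: with a pseudocount of 0.01 the log2 change of tek was -0.28 and still not called (adjusted p = 0.549).

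The gene cdh5 (ENSDARG00000075549) encodes VE-cadherin, the adhesion molecule of endothelial junctions. It had 8.61 and 7.25 FPKM in BPC, against 6.76 and 7.01 FPKM in DMSO larvae. Both BPC libraries were higher, and the estimate was the most positive of the 10 (log2 change 0.18, SE 0.13, interval -0.13 to 0.48), but it did not pass the test (adjusted p = 0.342). The gene fli1a (ENSDARG00000054632) encodes an ETS-family transcription factor of endothelial cells that is also expressed in neural crest and cartilage cells of the head. It had 10.3 and 10.1 FPKM in BPC and 10.4 and 11.7 FPKM in DMSO, with a log2 change of -0.10 (SE 0.11, interval -0.38 to 0.17, adjusted p = 0.526). The BPC values were both below the DMSO values, by little in the nearest pair.

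Lymphatic and venous identity was read from lyve1b (ENSDARG00000062483), a hyaluronan receptor gene, and from stab2 (ENSDARG00000045748), a scavenger and hyaluronan receptor gene. The level of lyve1b was 4.14 and 3.31 FPKM in BPC, against 3.30 and 3.88 FPKM in DMSO larvae (log2 change 0.04, SE 0.15, interval -0.32 to 0.40, adjusted p = 0.866). The level of stab2 was 2.93 and 2.22 FPKM in BPC, against 2.51 and 2.83 FPKM in DMSO larvae (log2 change -0.04, SE 0.15, interval -0.41 to 0.32, adjusted p = 0.858). In both genes the BPC libraries lay farther apart than the DMSO libraries, and the groups overlapped.

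**Figure D2:**
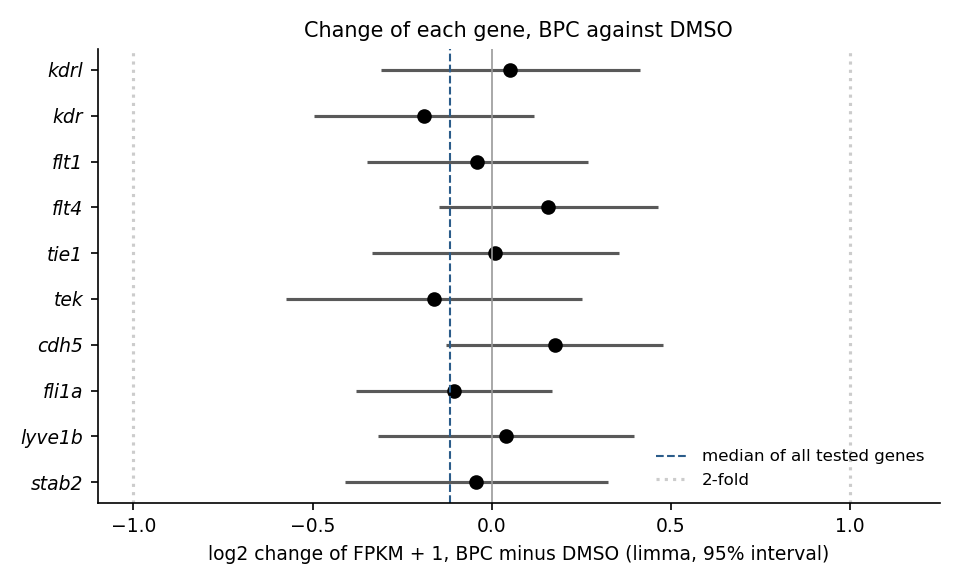
Fitted log2 change of FPKM + 1 (BPC minus DMSO, limma) of each gene, as a point with its 95% interval as a line. The dashed line marks the median of all tested genes, the dotted lines a 2-fold change, and every interval spans 0.

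A p-value that misses the threshold does not show equal levels, so the intervals set what these libraries leave possible under the reported scaling. On the scale of FPKM + 1, the lowest lower bound of any of the 10 intervals was a 0.671-fold level in BPC (tek) and the highest upper bound a 1.39-fold level (cdh5). These intervals are for single genes, are not adjusted for the number of genes, and would be wider for FPKM itself in the lowest genes. On the scale of FPKM + 1, a 2-fold change lay outside each of them. That does not carry over to FPKM itself in the lowest genes. With a pseudocount of 0.01 the log2 change of tek was -0.28 with an SE of 0.32. Other scalings also shift the intervals, so the bounds above hold for the reported scaling only. With TPM scaling the log2 change was -0.41 (SE 0.24) for tek and -0.45 (SE 0.16) for kdr. With quantile normalization it was 0.36 (SE 0.12) for flt4, and with median centring 0.33 (SE 0.12) for cdh5.

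The groups did not overlap in 5 of the 10 genes, with BPC above in cdh5 and flt4 and BPC below in kdr, flt1 and fli1a. Over all tested genes, 68.1% had groups that did not overlap, 23.0% with BPC above and 45.1% with BPC below. Ranked among the log2 changes of all tested genes, the 10 genes fell between the 42.1 percentile (kdr) and the 77.9 percentile (cdh5). None lay at either end of the distribution, but their range leaned to its upper side, with flt4 at the 76.7 percentile.

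The order of levels was nearly the same in both groups. The genes fli1a, cdh5, kdrl and lyve1b ranked 1 to 4 in every library, and kdr ranked 8 in every library. Over the 4 libraries fli1a (10.1 to 11.7 FPKM) did not overlap with cdh5 (6.76 to 8.61 FPKM). The ranges of cdh5 and kdrl (5.52 to 7.38 FPKM) overlapped, although cdh5 was the higher within each library. The range of lyve1b was apart from its neighbours on both sides. The genes flt4, tie1 and stab2 shared a range between 2.22 and 3.00 FPKM and changed places from library to library, and flt1 and tek did so at the low end. The range of kdr (1.78 to 2.25 FPKM) overlapped with that of stab2 and lay above those of flt1 and tek. Placed among all tested genes by mean level, the 10 genes reached from the 15.6 percentile (flt1) to the 77.5 percentile (fli1a). In BPC larvae fli1a made up 25.2% of the summed FPKM of the 10 genes, against 27.5% in DMSO larvae, and cdh5 made up 19.6% against 17.2%.

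Summed over the 10 genes, the level was 43.2 and 37.6 FPKM in BPC and 38.6 and 41.5 FPKM in DMSO larvae, so the groups overlapped. The total FPKM of the libraries was not equal, at 422245 and 425611 in BPC against 355583 and 355364 in DMSO. Rescaled so that every library had the same total (TPM scaling), the sum of the 10 genes was 102 and 88.2 TPM in BPC, against 109 and 117 TPM in DMSO larvae. On that scale both BPC libraries were below both DMSO libraries. The sign of a small change therefore depended on the scaling. With TPM scaling all 10 log2 changes were below 0, with a median of -0.23 and the median of all tested genes at -0.36. With quantile normalization 9 of 10 were above 0 (median 0.18, all tested genes 0.019), and with median centring 8 of 10 (median 0.14, all tested genes 0.036). None of the 10 was called under any of these scalings. The smallest adjusted p values were 0.0562 for fli1a and 0.0657 for kdr, both lower in BPC with TPM scaling, and 0.0868 for flt4, higher in BPC with quantile normalization. Set against all tested genes, the median of the 10 genes was 0.10 higher in the reported fit, 0.13 higher with TPM scaling and 0.16 higher with quantile normalization. It was 0.033 higher without BPC replicate 1 and 0.22 higher without BPC replicate 3, so the size of this gap depended on the library left out.

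**Figure D3:**
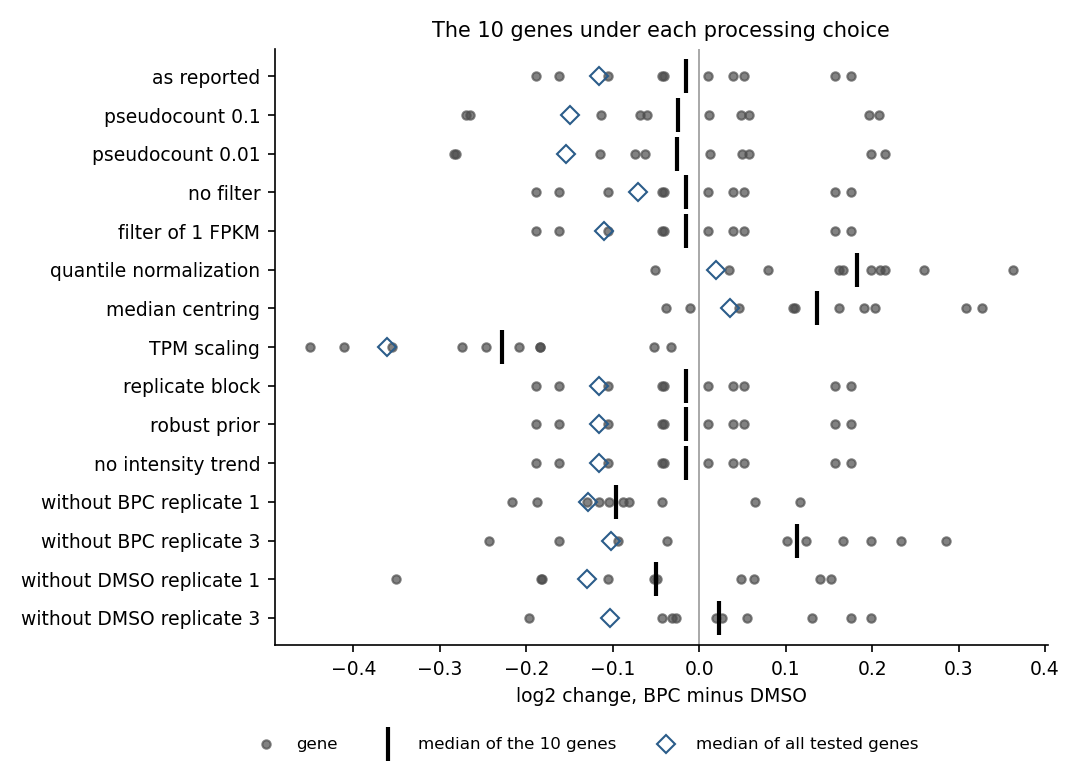
Log2 change (BPC minus DMSO) of the 10 genes, 1 row per processing choice, with points for genes, a bar for their median and a diamond for the median of all tested genes. TPM scaling puts all 10 genes below 0 and quantile normalization puts 9 of 10 above 0, while the bar stays to the right of the diamond in each row.

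The authors' deposited table gives its own test of the same libraries. None of the 10 genes had a q-value under 0.05 in the authors' deposited table, where 19.4% of all genes did, and 0 of 10 were marked significant there, beside 8.38% of all genes. Those shares are over all 27472 genes, also those below the filter that the 10 genes passed. Among the 10, no q-value came near 0.05 except that of cdh5. The smallest q-values of the 10 genes were those of cdh5 (p = 0.0122, q = 0.0589, ratio 1.15) and flt4 (p = 0.0377, q = 0.138, ratio 1.16) in the authors' deposited table. For kdr, whose ratio of 0.822 was further from 1 than that of cdh5, the p-value in the authors' deposited table was 0.528. In the authors' deposited table the p-values were not centred on an FPKM ratio of 1. Among genes tested here, their median was highest, at 0.914, for ratios between 0.871 and 0.933, and it was 0.303 for ratios between 1 and 1.07. A further deposited list covers genes counted as changed between a single pair, BPC replicate 3 and DMSO replicate 3. It held 424 of 5689 genes with a pathway annotation, and 0 of the 10 were among them. How many of the 10 carry such an annotation was not counted, so their absence cannot be read as a result.

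The libraries of the BPC group differed from each other more than those of the DMSO group in most of the 10 genes. BPC replicate 1 was above BPC replicate 3 in 9 of the 10 genes, tek being the exception, where 54.8% of all tested genes were. The gap was 33.7% of the lower library in kdrl, 32.3% in stab2, 25.1% in lyve1b, 24.6% in tie1 and 18.8% in cdh5. It was 1.69% in fli1a and 0.692% in flt1. In DMSO larvae replicate 1 was above replicate 3 in 2 of 10 genes, kdr and tie1, where 45.8% of all tested genes were. The median size of the gap in log2(FPKM + 1), regardless of sign, was 0.19 for the 10 genes in BPC and 0.076 in DMSO, against 0.17 and 0.11 over all tested genes. The genes share a library, so their gaps are not independent of each other. Without BPC replicate 1 the log2 changes were above 0 in 2 of 10 genes (median -0.096), and without BPC replicate 3 in 6 of 10 (median 0.11), with no call in either case.

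**Figure D4:**
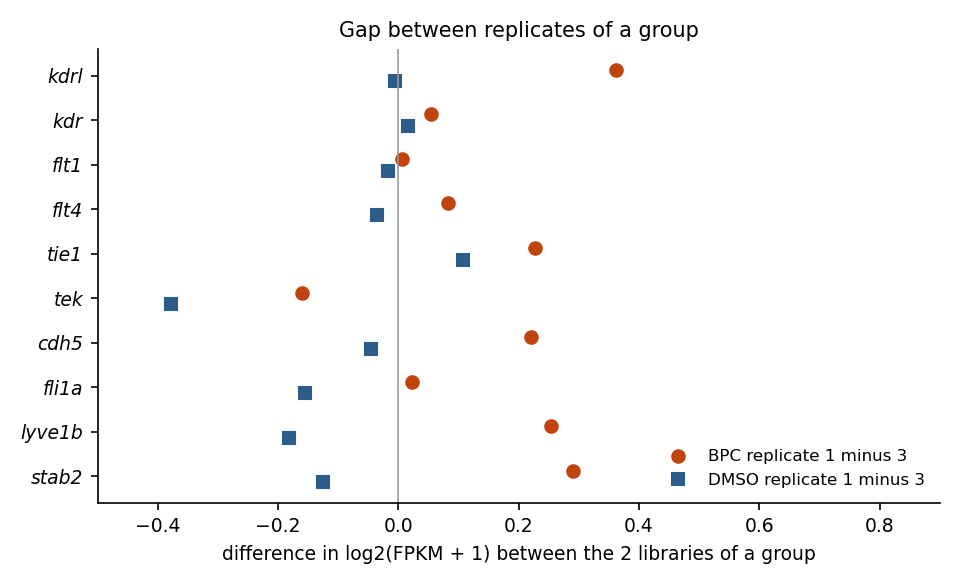
Difference in log2(FPKM + 1) between replicate 1 and replicate 3 of the BPC group (circles) and of the DMSO group (squares) for each gene. BPC circles are right of 0 in 9 of 10 genes, with kdrl and stab2 farthest out, while tek is left of 0 in both groups.

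Other genes of the vascular pathways were taken from 7 lists that hold none of the 10 genes. Of 119 symbols, 113 were found and 107 were tested. In BPC larvae 10 rose and 15 fell, 23.4% of those tested, beside 24.6% of all tested genes, and the median log2 change was -0.0022. For the counts of each list below, 7.06% of all tested genes were called higher and 17.5% lower. Their log2 changes ran from 0.40 to 0.79 and from -0.37 to -0.89. With TPM scaling 2 of the 10 rises (cldn5b and thsd1) and all 15 falls kept their calls. With quantile normalization all 10 rises and 3 of the 15 falls (prox1a, tbx1 and esama) kept theirs. Among the rises, thsd1 passed the filter only through its BPC libraries and dropped out with a filter of 1 FPKM. All 25 calls were lost without DMSO replicate 1 and also without DMSO replicate 3, and the 25 directions were kept in both cases. Erythroid marker levels moved in the same libraries: the 4 tested genes of that list summed to 155 and 118 FPKM in BPC against 24.4 and 38.6 FPKM in DMSO, and the part of such a shift in these results was not tested.

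Both vegfa genes, which encode VEGF-A ligands, rose, and they were the only calls among 10 tested VEGF ligand and co-receptor genes. The gene vegfaa had 8.84 and 5.34 FPKM in BPC, against 3.15 and 4.01 FPKM in DMSO larvae (log2 change 0.79, SE 0.22, adjusted p = 0.0461). The gene vegfab had 8.54 and 6.59 FPKM in BPC, against 4.30 and 4.70 FPKM in DMSO (log2 change 0.63, SE 0.15, adjusted p = 0.0276). Both BPC libraries were above both DMSO libraries in each, and BPC replicate 1 was the highest, as it was for kdrl and cdh5. With TPM scaling neither call held, at log2 changes of 0.65 for vegfaa (adjusted p = 0.0792) and 0.46 for vegfab (adjusted p = 0.0669). With no filter both calls were also lost, at an adjusted p of 0.113 for vegfaa and 0.0668 for vegfab. The call of vegfaa was lost with both smaller pseudocounts too. Without BPC replicate 1 the log2 change was 0.48 for vegfaa and 0.47 for vegfab. The lymphatic ligand gene vegfc had 1.06 and 1.24 FPKM in BPC, against 0.821 and 1.21 FPKM in DMSO (adjusted p = 0.665), and vegfd and pgfb were not called either. The ligand gene vegfba was below the filter and not tested by limma, at 0.146 and 0.219 FPKM in BPC against 0.493 and 0.563 FPKM in DMSO. In the authors' deposited table vegfba had a ratio of 0.346 (q = 0.00772) and was marked significant. The co-receptor gene nrp1b had 4.17 and 5.91 FPKM in BPC against 7.87 and 7.44 FPKM in DMSO, which did not pass (log2 change -0.53, adjusted p = 0.0568). Whether the ligand changes differ from those of the receptors was not tested.

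In the angiopoietin list 2 of 9 tested genes fell (22.2%) and 0 rose, beside 17.5% lower and 7.06% higher among all tested genes. The ligand gene angpt4 was low, at 0.646 and 0.404 FPKM in BPC against 1.21 and 1.39 FPKM in DMSO (log2 change -0.59, adjusted p = 0.0310). The main Tek ligand gene, angpt1, had 2.59 and 2.32 FPKM in BPC, against 2.18 and 1.80 FPKM in DMSO, and was not called (adjusted p = 0.307).

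Of 14 tested genes of the lymphatic programme, 3 fell (21.4%) and 0 rose, beside 17.5% lower and 7.06% higher among all tested genes. The gene prox1a encodes the transcription factor that marks lymphatic fate and is also expressed in liver, lens and muscle. It had 12.0 and 12.7 FPKM in BPC, against 18.5 and 18.2 FPKM in DMSO larvae (log2 change -0.53, SE 0.10, adjusted p = 0.0156). The transcription factor gene tbx1, which also acts in the pharyngeal arches, had 8.46 and 9.45 FPKM in BPC and 14.3 and 13.6 FPKM in DMSO (log2 change -0.59, adjusted p = 0.0152), and osr2 fell with a log2 change of -0.56. Each is expressed outside lymphatic vessels, and whole-larva values do not show where they fell. The other lymphatic genes were not called. Among them was the endocytic receptor gene mrc1a (4.82 and 4.76 FPKM in BPC, 5.08 and 6.07 FPKM in DMSO). The stabilin gene stab1 had 1.63 and 1.93 FPKM in BPC, against 2.23 and 2.34 FPKM in DMSO. The gene ccbe1, which is needed to activate Vegfc, had 1.63 and 1.08 FPKM in BPC, against 0.843 and 1.35 FPKM in DMSO. Nearest to a call among the uncalled genes was sox18, which was higher in BPC. It had 4.58 and 5.01 FPKM in BPC, against 3.45 and 3.34 FPKM in DMSO (log2 change 0.40, adjusted p = 0.0595). Of the 14 tested genes, 4 had a log2 change above 0 and 10 below 0.

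Of 18 tested endothelial transcription factor genes, 3 fell (16.7%) and 0 rose, beside 17.5% lower and 7.06% higher among all tested genes. The flow-responsive gene klf2a had 7.84 and 9.79 FPKM in BPC, against 14.4 and 12.4 FPKM in DMSO (log2 change -0.56, adjusted p = 0.0357). The gene nfatc1, which acts in the endocardium and in bone-resorbing cells, had 1.90 and 2.21 FPKM in BPC, against 3.41 and 3.96 FPKM in DMSO (log2 change -0.62, adjusted p = 0.0241). The hypoxia-inducible factor gene epas1b fell with a log2 change of -0.58. Other ETS genes of the list, among them fli1b and ets1, were not called. The level of fli1b was 2.83 and 2.47 FPKM in BPC and 2.83 and 2.47 FPKM in DMSO. That of ets1 was 4.51 and 5.00 FPKM in BPC and 5.45 and 5.01 FPKM in DMSO.

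Endothelial surface, junction and signalling genes went both ways, with 4 of 30 tested genes higher and 4 lower. The claudin gene cldn5b, a tight junction gene, had 13.7 and 14.9 FPKM in BPC, against 9.12 and 7.47 FPKM in DMSO larvae (log2 change 0.72, SE 0.13, adjusted p = 0.0129). The other 3 higher genes were cldn5a, also expressed in brain, robo4, a guidance receptor gene, and thsd1, with log2 changes from 0.47 to 0.67. The level of thsd1 was low, it passed the filter only through its BPC libraries, and a second Ensembl gene carries its symbol. The adhesion gene esama had 2.33 and 2.82 FPKM in BPC, against 5.41 and 4.73 FPKM in DMSO (log2 change -0.76, SE 0.14, adjusted p = 0.0133). The calcitonin receptor-like gene calcrla had 2.90 and 2.41 FPKM in BPC, against 4.64 and 4.50 FPKM in DMSO (log2 change -0.61, adjusted p = 0.0220), and mmrn2a and apln were lower by -0.42 and -0.37 on the log2 scale. Thus the junction genes cldn5b and cldn5a rose and esama fell, and cdh5 was not called. The limma calls of cldn5a (adjusted p = 0.0498) and mmrn2a (adjusted p = 0.0499) were lost with both smaller pseudocounts.

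Artery and vein genes held 2 calls among 16 tested, both higher. The Notch receptor genes notch1a (7.48 and 8.94 FPKM in BPC, 5.47 and 4.06 FPKM in DMSO) and notch1b (7.69 and 7.11 FPKM in BPC, 4.45 and 5.11 FPKM in DMSO) rose with log2 changes of 0.68 and 0.54. Both are expressed in neural progenitors as well as in vessels. The arterial ligand gene dll4 had 1.76 and 1.91 FPKM in BPC, against 2.27 and 2.25 FPKM in DMSO, and was not called (adjusted p = 0.281). The venous receptor gene ephb4a was not called either (6.90 and 8.52 FPKM in BPC, 10.3 and 9.22 FPKM in DMSO, adjusted p = 0.143). Of the 16 genes, 9 had a log2 change above 0 and 7 below 0. Also not called was dlc, at 16.9 and 12.4 FPKM in BPC against 10.3 and 9.27 FPKM in DMSO (log2 change 0.52, adjusted p = 0.0573). The uncalled genes jag1a, hey2 and cxcr4a likewise had both BPC libraries above both DMSO libraries, with log2 changes of 0.39, 0.40 and 0.54.

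Brain endothelium and barrier genes had 2 higher and 3 lower calls among 10 tested. The lipid transporter gene mfsd2aa had 0.860 and 1.74 FPKM in BPC, against 3.04 and 3.34 FPKM in DMSO larvae (log2 change -0.89, SE 0.20, adjusted p = 0.0248). Its duplicate mfsd2ab had 13.9 and 14.4 FPKM in BPC, against 14.0 and 13.6 FPKM in DMSO, and was not called. The 2 copies of the glucose transporter gene slc2a1 were called in opposite directions: slc2a1a had 1.48 and 2.34 FPKM in BPC against 3.41 and 3.68 FPKM in DMSO (log2 change -0.66), and slc2a1b had 14.3 and 12.9 FPKM in BPC against 10.1 and 10.1 FPKM in DMSO (log2 change 0.40). The pair of opposite calls held under none of the 3 scalings, since slc2a1a was not called after median centring (adjusted p = 0.0846) or quantile normalization (adjusted p = 0.102), and slc2a1b was not called after TPM scaling (adjusted p = 0.274). With the replicate block slc2a1b was not called (adjusted p = 0.0665).

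**Figure D5:**
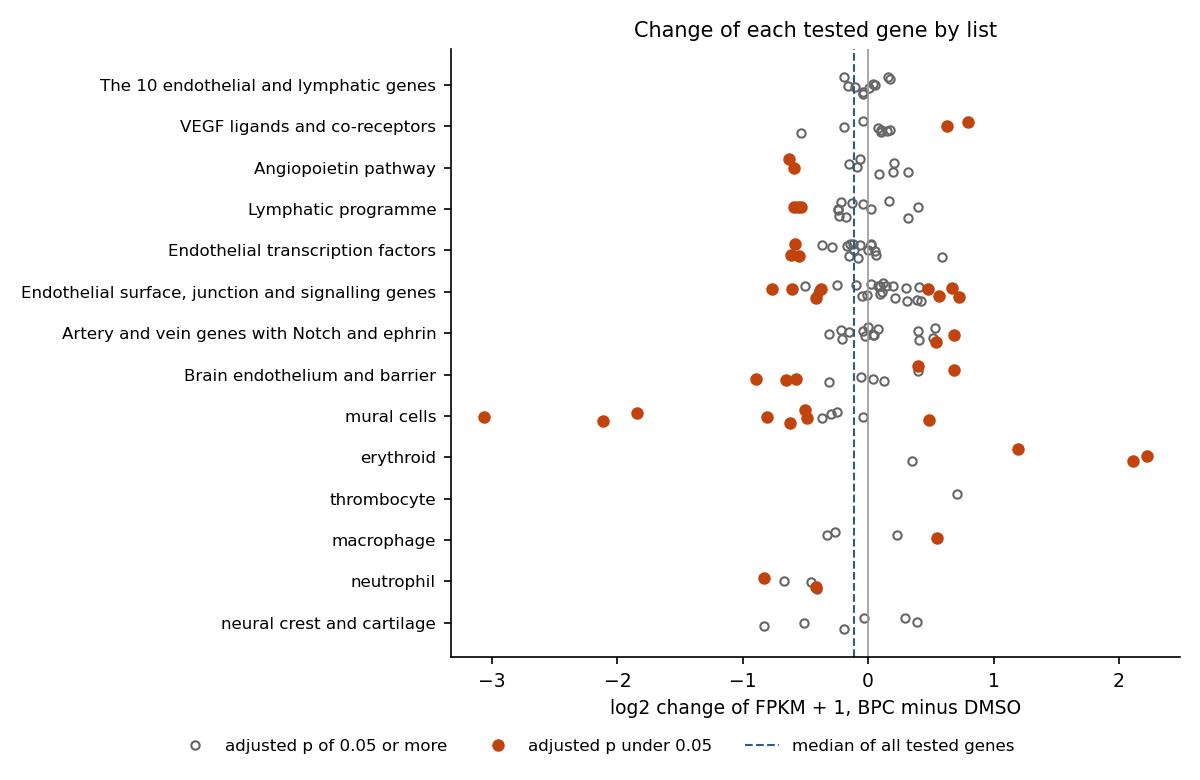
Log2 change of FPKM + 1 (BPC minus DMSO) of each tested gene by list, filled where the adjusted p was under 0.05 and open otherwise, with a dashed line at the median of all tested genes. The 10 endothelial and lymphatic genes lie between -0.19 and 0.18, and the mural cell list reaches -3.06.

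Mural cells, the smooth muscle cells and pericytes around vessels, were read from 12 genes, 7 of which fell and 1 of which rose. Only 4 of the 7 falls (acta2, myh11a, tagln and pdgfrb) kept their calls with quantile normalization, with median centring and with no filter. The contractile genes were the lowest: acta2, smooth muscle actin, had 1.70 and 1.86 FPKM in BPC, against 27.8 and 17.7 FPKM in DMSO larvae (log2 change -3.06, SE 0.21, adjusted p = 0.00104). The smooth muscle myosin gene myh11a had 1.18 and 1.45 FPKM in BPC, against 10.4 and 7.80 FPKM in DMSO (log2 change -2.11, adjusted p = 0.00169), and tagln fell with a log2 change of -1.84. These contractile genes are also expressed in gut smooth muscle, so their fall cannot be placed on vessels. The pericyte receptor gene pdgfrb had 1.34 and 1.90 FPKM in BPC, against 3.58 and 3.55 FPKM in DMSO (log2 change -0.81, adjusted p = 0.0144). The gene foxf2a, of brain mural cells, had 6.81 and 6.36 FPKM in BPC and 6.81 and 6.77 FPKM in DMSO, and was not called. The gene that rose was notch3, at 17.9 and 16.5 FPKM in BPC against 12.4 and 11.6 FPKM in DMSO (log2 change 0.49). The calls of acta2 and myh11a held without each library in turn, and that of tagln was lost without DMSO replicate 1 (adjusted p = 0.0543). The other 5 calls of the list were lost without either DMSO library, and that of notch3 also with TPM scaling.

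Other cell types that share genes or origin with endothelium moved unevenly. Of 4 tested erythroid genes 3 rose, with slc4a1a at 61.7 and 51.1 FPKM in BPC against 8.71 and 14.5 FPKM in DMSO. Of 4 tested macrophage genes 1 rose, mfap4 (log2 change 0.55), and of 5 neutrophil genes 2 fell, mpx (log2 change -0.83) and cebpa (-0.42). The calls of mfap4, mpx and cebpa were lost with no filter. Those of mpx and cebpa were also lost with quantile normalization, and that of mfap4 with TPM scaling. The call of cebpa was lost with median centring, the replicate block and the untrended prior as well. These 3 calls were lost without either DMSO library, and those of mfap4 and cebpa also without either BPC library. Of 6 neural crest and cartilage genes, which share fli1a expression, 0 were called by limma in the reported fit. The cartilage collagen gene col2a1a had 149 and 286 FPKM in BPC against 391 and 345 FPKM in DMSO (log2 change -0.83, adjusted p = 0.0799), and the cartilage transcription factor gene sox9a had 15.7 and 20.0 FPKM in BPC against 23.4 and 28.2 FPKM in DMSO (log2 change -0.51, adjusted p = 0.0547). Both were called lower with TPM scaling (adjusted p = 0.0273 for col2a1a and 0.0121 for sox9a), with the replicate block (0.0468 and 0.0255 in the same order) and without BPC replicate 3 (0.00375 and 0.0231). The gene col2a1a was also called with quantile normalization (adjusted p = 0.0237), and sox9a with the filter of 1 FPKM (adjusted p = 0.0494) and the robust prior (adjusted p = 0.0462). In the thrombocyte list 1 of 3 genes was tested, gp1bb, at 2.66 and 1.31 FPKM in BPC against 0.578 and 1.01 FPKM in DMSO (adjusted p = 0.0799). The gene itga2b, below the filter and not tested, was at 0.0335 and 0 FPKM in BPC against 0.201 and 0.117 FPKM in DMSO.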

How the data were processed

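Whole-larva RNA was measured in 4 libraries. Per the file headers, the authors deposited FPKM values per gene and library, the ratio of mean FPKM (BPC over DMSO), its log2, and a p-value and q-value per gene. A second deposited table gives a p-value and the count of genes per pathway for 1 pair of libraries. Tools named in the submitters' processing notes are HISAT2 2.0.4, StringTie 1.3.4d, cutadapt 1.9, edgeR and DESeq2, without their roles. Build and strand setting were not given in the sources used here. Reads of antisense partners may be mixed. Depth is unknown, since FPKM holds no read totals, and no counting intervals were computed. All FPKM columns were matched by name (0 unmatched).

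The main test was limma 3.58.1 (R 4.3.3) on log2(FPKM + 1), with treatment group as its single term, a prior that follows intensity, and no robust step (prior degrees of freedom 4.47). It was tested on simulated data. For low genes this scale shrinks a change. The 10 genes and all lists were chosen with earlier results of these data known, so no list was tested, and lists are described by counts and medians. A symbol with 2 Ensembl genes was taken as the one that the name table gives that symbol. The text names all 10 genes, up to 4 called genes of a list with the smallest p (every called vascular gene may be named), or the 2 highest where none was called. A called gene that is counted in its list is not reported here. The genes vegfc, vegfd, pgfb, vegfba, nrp1b, angpt1, mrc1a, stab1, ccbe1 and fli1b lie outside that rule and were chosen after their values were seen. The same holds for ets1, dll4, ephb4a, mfsd2ab, foxf2a, notch3, itga2b, dlc, jag1a, hey2, cxcr4a and sox18. Alternatives were pseudocounts of 0.1 and 0.01, no filter (genes at 0 in all 4 libraries left out), a filter of 1 FPKM, 3 scalings, a replicate block, robust and untrended priors, and leaving out each library with the tested genes kept. Leaving out a library leaves 1 sample in its group, which is assumed to vary like the other group.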

Additional observations from a re-analysis of the deposited data

How the results depend on the processing

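None of the 10 genes was called under any of the 14 alternatives, with 0 higher and 0 lower in each, and the smallest adjusted p was 0.0562. Their median log2 change, -0.015 as reported, was 0.18 with quantile normalization, 0.14 with median centring and -0.23 with TPM scaling, and ran from -0.096 to 0.11 when a library was left out. It lay above the median of all tested genes in all 14, which draw on the same 4 libraries. The gap was 0.033 without BPC replicate 1 and 0.22 without BPC replicate 3. Of the other vascular genes, 10 were called higher and 15 lower as reported. The counts were 2 and 3 with no filter, 21 and 3 with quantile normalization, 20 and 4 with median centring and 2 and 31 with TPM scaling, and 9 were lower with a pseudocount of 0.01. Leaving out a library gave 0 to 13 higher and 0 to 14 lower. Over all genes, 1404 higher and 3480 lower calls became 748 and 2020 with no filter, 2441 and 1997 with median centring, 1948 and 2111 with quantile normalization, and 759 and 7286 with TPM scaling. They ran from 149 to 2040 and from 452 to 3983 when a library was left out, lowest without DMSO replicate 1. Lower calls were 71.3% of all calls as reported, 52.0% with quantile normalization, 45.0% with median centring and 90.6% with TPM scaling, and the shift of the median of all tested genes was 0.14, 0.15 and -0.25 in turn. No named gene that was called reversed its direction, and 166 calls of single named genes were lost and 11 gained over all alternatives. The cause was not tested. The replicate numbers are shared between groups, but nothing in the labels says that they pair libraries, and same-numbered libraries did not deviate together (correlation over genes 0.0081). With the replicate block 0 of the 10 genes were called, 20 of the 25 other vascular calls were kept and 1333 higher and 3282 lower genes were called over the table. Depth is unknown, and with 2 libraries a group, changes of the size seen here (median SE 0.136) could not be told from 0.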

Other observations

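The deposited annotation gives wider vascular terms, looked up after the values of the 10 genes had been seen. Of 130 tested genes annotated to angiogenesis, 12 were higher and 14 lower in BPC (20.0%), of 40 annotated to vasculogenesis 4 and 2, of 29 annotated to lymphangiogenesis 3 and 2, and of 18 annotated to lymph vessel development 0 and 4. Of 69 tested genes of the KEGG VEGF signaling pathway, 3 were higher and 11 lower, and their median log2 change of -0.13 lay beside -0.12 for all tested genes. Over all tested genes, 7.06% were called higher and 17.5% lower. In the authors' deposited table for the single pair of libraries, 4 of 72 genes of that pathway counted as changed (p = 0.795). Of all genes with a pathway annotation there, 424 of 5689 did.

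In the authors' deposited table, 29 of the 113 other vascular genes had a q-value under 0.05, where 19.4% of all 27472 genes did. That background includes genes below the filter, whereas 107 of the 113 passed it, so the sets are not alike. Of the 29, 20 had a ratio above 1 and 9 below. The p-values in the authors' deposited table were lower for rises than for falls of like size. Among genes tested here, their median was 0.000916 for ratios between 1.41 and 1.52 and 0.119 for ratios between 0.660 and 0.707. The split of 20 to 9 therefore does not show that more of these genes rose. The 29 included 9 of the 10 genes called higher by limma and 7 of the 15 called lower.

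The genes whose profile over the 4 libraries was closest to the mean profile of the 10, by Euclidean distance of centred log2(FPKM + 1), were itsn2b (0.0080), mrps34 (0.0088), nap1l4b, nudt19 and sltm. For itsn2b the levels were 10.3 and 9.28 FPKM in BPC, against 9.50 and 10.2 FPKM in DMSO larvae.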
